A study of Triticum aestivum with 27 samples.

Results

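The 200 wheat transcripts described here were chosen by their level in the variety Zhoumai18 after 96 h of wet incubation. For each identifier with a chromosome in the annotation, the level in a group was log2(mean FPKM of 3 replicates + 1), where FPKM is the fragment count divided by transcript length and library size. The score was the lowest level among Baipimai at 0, 48 and 96 h, Shengsimai at 0, 48 and 96 h and Zhoumai18 at 0 h, minus the level in Zhoumai18 at 96 h, and the 200 highest scores of 108061 identifiers were taken, from a table of 153699 genes. All 200 had at least 1 FPKM in 3 or more libraries and entered every fit. Because the values of Zhoumai18 at 96 h and the floor set by the 7 other groups chose the members, every difference of Zhoumai18 at 96 h from its own 0 h or from the other varieties is given as a description, with no test. Zhoumai18 at 48 h is the only group the rule did not use. In its comparisons the other group belongs to the floor, so each member was chosen to be high on that side. The counts of members below it, and the p-values of single members below it, are read with that condition. Falls of single members in Zhoumai18 from 0 h to 48 h are given with no p-value. Comparisons between 2 groups of the floor rest on values the rule used throughout, and their counts and fold changes are given as a description, with no p-value for single members. The floor also limits how far a member could go down in any of its 7 groups.

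The study sequenced mRNA of whole spikes of common wheat (Triticum aestivum) cut at wax ripeness, soaked in water and kept in a warm, humid chamber, to compare varieties that differ in pre-harvest sprouting, the germination of grains on the spike. The groups were Zhoumai18, a white-grained variety that sprouts readily, Baipimai, a white-grained resistant variety, and Shengsimai, a red-grained and highly resistant variety, each at 0, 48 and 96 h in the chamber, with 3 replicate libraries in each of the 9 groups. All spikes had been soaked, so the 0 h spikes were wetted but not incubated, and each replicate was 1 spike. A spike holds grains with embryo, aleurone and starchy endosperm, together with glumes and rachis, and in such bulk samples fewer cells of a type and less RNA per cell cannot be told apart.

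During late maturation the wheat embryo and aleurone accumulate storage globulins, oil body proteins and late embryogenesis abundant (LEA) proteins, the last being hydrophilic proteins that protect cells as they dry. Much of this programme is driven by abscisic acid through the transcription factor VIVIPAROUS1 and through bZIP factors that bind abscisic acid response elements. On germination these messages are degraded and the stored proteins are mobilised, while dormant grains keep the messages for longer.

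The 27 libraries held between 45590141 and 55765523 counts over the gene table. The Zhoumai18 libraries of 0 h stood apart from the later ones of that variety in which genes were present at all. There were 492 genes with at least 200 counts over the 3 libraries at 0 h and at most 5 at 48 h and at 96 h, and 636 genes with the opposite pattern, against 16 and 238 in Baipimai and 33 and 150 in Shengsimai. Of the 492 genes, 101 were present in all 6 groups of the other varieties, 145 were absent from all 6, and 15 were members. Whether the Zhoumai18 libraries of 0 h and those of 48 and 96 h came from one genotype was not tested. In every fall or rise from 0 h given below for Zhoumai18, time and a difference in material cannot be told apart. Counts of members that use Zhoumai18 at 0 h or at 48 h are therefore also given for the 37 members that were already under 1 FPKM in Zhoumai18 at 48 h and for the other 163, and Zhoumai18 at 48 h was compared with the other varieties at 48 h, which uses no 0 h library. The 0 h libraries of Zhoumai18 also bore on the choice itself, because without them in the floor 126 of the 200 members were kept.

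Over the 200 members the median level in Zhoumai18, in log2(FPKM + 1), was 6.69 at 0 h, 4.54 at 48 h and 1.55 at 96 h. The medians at the same times were 6.79, 5.53 and 5.39 in Baipimai, and in Shengsimai 6.54, 6.12 and 6.03. The median over all 68658 genes tested lay between 1.19 and 1.95 in the 9 groups, so the members lay far above the median gene in every group but Zhoumai18 at 96 h. The members took 10.9% ± 0.156 of all counts in Zhoumai18 at 0 h, 5.10% ± 0.374 at 48 h and 0.928% ± 0.0485 at 96 h (SD, n = 3). In Baipimai they took 15.0%, 9.37% and 9.89% at the 3 times and in Shengsimai 17.4%, 13.0% and 11.9%. A pair of storage globulin genes, both named Glo-3A, held 2.76%, 1.89% and 0.407% of the counts in Zhoumai18, and without the pair the share of the members was 8.15%, 3.21% and 0.521%.

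**Figure D1:**
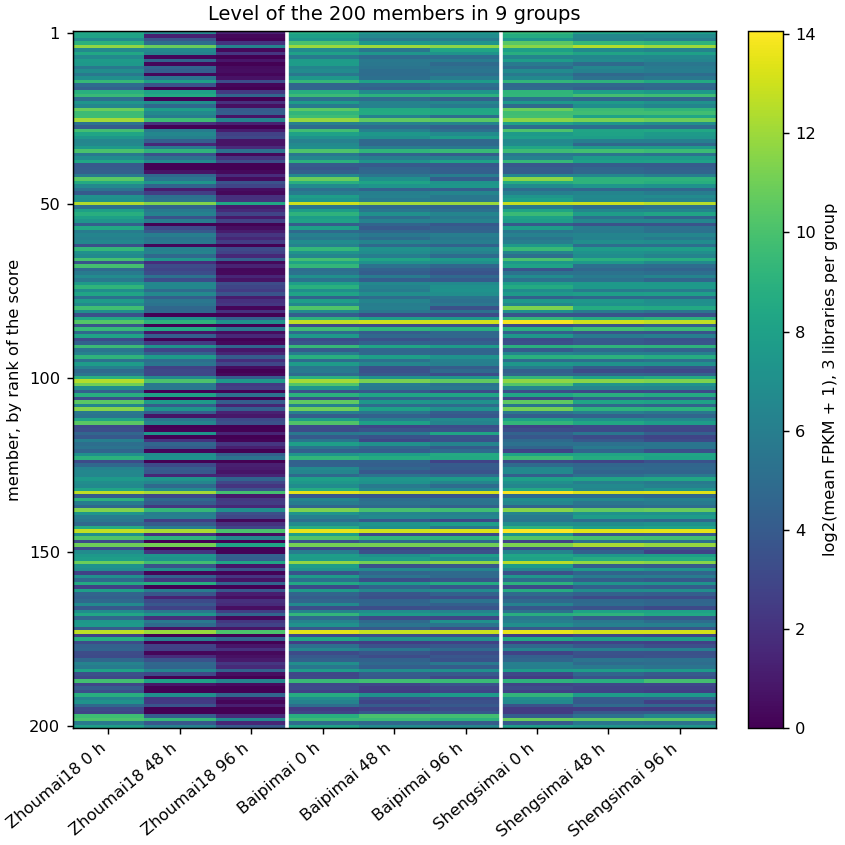
Level of each of the 200 members (rows, ordered by score) in the 9 groups (columns), as log2(mean FPKM of 3 replicates + 1). The column of Zhoumai18 at 96 h, which chose the members, has a median of 1.55, and the median of Zhoumai18 at 48 h is 4.54.

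The word lost holds for only a share of the members. At 96 h in Zhoumai18, 80 of the 200 were under 1 FPKM, when 21.5% of all genes tested were. The other 120 were still above it, and the highest member, one of the Glo-3A genes, still averaged 1022 FPKM. Under 1 FPKM in Zhoumai18 at 48 h were 37 members, when 27.2% of all genes tested were. None was under it in any of the other 7 groups, which the floor fixed in advance. As a description, the level in Zhoumai18 at 96 h minus that at 0 h had a median of -4.37 and ranged from -10.0 to -2.48, against a median of 0.21 over all genes tested. Zhoumai18 at 96 h minus Baipimai at 96 h had a median of -3.42, and minus Shengsimai at 96 h a median of -4.06. In Baipimai at 96 h minus 0 h the median was -1.01 and in Shengsimai -0.38. Single members ranged from -6.7 to 2.6 in Baipimai and from -3.9 to 2.8 in Shengsimai, and the floor limited how far each could fall.

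Only a few members could be given a function from the sources used here. The deposited table gives a symbol for 99 of the 200, or 49.5%, against 37.7% of all genes tested, and 4 of these members carry a symbol other than a numbered locus. These are the 2 Glo-3A genes, HSD11BL and taxi-I. Another, LOC543497, is listed with the synonym EM in the RefSeq gene table, and this is the wheat Em gene, which encodes a group 1 LEA protein of the embryo that abscisic acid induces. The symbol LOC109739352 is shared by 3 further members that resembled Em in level and course.

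Among Em, the Glo-3A genes, HSD11BL and taxi-I, Em (TraesCS1B01G237500, chromosome 1B) had the steepest fall by 48 h in Zhoumai18. In Zhoumai18 its 3 libraries held 785, 1831 and 1666 FPKM at 0 h, 47.3, 41.6 and 43.1 FPKM at 48 h, and 0.277, 0.522 and 0.394 FPKM at 96 h. In Baipimai the values were 2097, 1803 and 1547 FPKM at 0 h, 126, 167 and 100 FPKM at 48 h, and 19.7, 18.5 and 14.7 FPKM at 96 h. In Shengsimai they were 2834, 3400 and 3213 FPKM at 0 h, 517, 547 and 545 FPKM at 48 h, and 511, 555 and 586 FPKM at 96 h. All 3 varieties started high, the libraries of the 3 varieties did not overlap at 48 h, and Shengsimai kept its 48 h level through 96 h. In edgeR's quasi-likelihood test with Benjamini-Hochberg adjustment, Em in Zhoumai18 fell by 48 h relative to 0 h, with a log2 fold change of -5.28 ± 0.23 (SE, adjusted p = 8.66e-18). At 48 h it was lower in Zhoumai18 than in Baipimai by a log2 fold change of -1.54 ± 0.20 and lower than in Shengsimai by -3.73 ± 0.21 (adjusted p = 1.86e-07 and 6.24e-15 in the same test). Em also fell by 96 h in Baipimai, by 6.94 on the log2 scale, and in Shengsimai, by 3.05. The first Zhoumai18 library at 0 h was low for Em and the 3 genes under LOC109739352. At 0 h the log2 fold change of Em in Zhoumai18 against Baipimai was -0.48 ± 0.18, and without that library it was -0.195.

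The 3 genes under LOC109739352 lie on chromosomes 1A (TraesCS1A01G224200 and TraesCS1A01G224500) and 1D (TraesCS1D01G225900). TraesCS1D01G225900 had 462, 1133 and 1007 FPKM at 0 h in Zhoumai18, 23.8, 25.2 and 24.7 FPKM at 48 h and 0.0743, 0.206 and 0.327 FPKM at 96 h. It had 334, 347 and 396 FPKM in Shengsimai at 96 h, and 10.4, 12 and 8.27 FPKM in Baipimai at 96 h. The gene on 1D thus kept a high level only in Shengsimai at 96 h, and the libraries of Baipimai and Shengsimai did not overlap there. By 48 h in Zhoumai18 TraesCS1A01G224200 fell by 4.11 on the log2 scale, TraesCS1A01G224500 fell by 4.20 and TraesCS1D01G225900 fell by 5.40. Against Shengsimai at 48 h all 3 were lower in Zhoumai18, with log2 fold changes of -2.41 for TraesCS1A01G224200, -2.42 for TraesCS1A01G224500 and -4.14 for TraesCS1D01G225900. Against Baipimai at 48 h the gene on 1D was lower (-1.40 ± 0.22, adjusted p = 3.84e-06 by edgeR), while both genes on 1A did not pass the test (-0.27 ± 0.20 and -0.24 ± 0.20). How the authors' counting divided reads between such similar copies is not given in the sources used here, so the split of counts within this trio, and within the Glo-3A pair, is uncertain.

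The Glo-3A genes (TraesCS4A01G296000 and TraesCS4A01G296100, neighbours on chromosome 4A) encode 7S globulins, which are stored in the embryo and aleurone. TraesCS4A01G296100 was the most abundant member, with 7126, 6508 and 6521 FPKM in Zhoumai18 at 0 h, 5102, 4686 and 4424 FPKM at 48 h and 974, 1092 and 1001 FPKM at 96 h. At 48 h Baipimai had 8383, 8656 and 8798 FPKM and Shengsimai had 10554, 11207 and 11198 FPKM, and at 96 h Baipimai had 10134, 10269 and 10780 FPKM and Shengsimai 12105, 11795 and 10060 FPKM. Every Zhoumai18 library was below every library of the other varieties at the same time, which at 96 h follows from the rule. In Zhoumai18 TraesCS4A01G296100 was lower at 48 h than at 0 h (log2 fold change -0.77 ± 0.09, edgeR). Its value turned to 0.751 under quantile normalization, which gives the highest genes of all libraries equal values. Under TMM scaling it was also lower in Zhoumai18 at 48 h than in Shengsimai (-1.33 ± 0.09), and quantile normalization turned that to 0.21. Against Baipimai at 48 h the difference was -0.82 ± 0.09, and quantile normalization left 0.

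HSD11BL (TraesCS5B01G559400, chromosome 5B) is named for likeness to a hydroxysteroid dehydrogenase, and in Arabidopsis proteins of that type, the steroleosins, sit on the oil bodies of seeds. Zhoumai18 had 385, 389 and 411 FPKM at 0 h, 68.1, 67.8 and 64.0 FPKM at 48 h and 19.2, 20.1 and 20.3 FPKM at 96 h. Baipimai had 121, 124 and 124 FPKM at 48 h and 122, 123 and 116 FPKM at 96 h, and Shengsimai had 220, 223 and 216 FPKM at 48 h and 213, 204 and 206 FPKM at 96 h. The varieties were in the order Zhoumai18, Baipimai, Shengsimai from low to high at both later times, with no overlap between libraries. At 96 h the rule fixed the lowest place of Zhoumai18. HSD11BL was lower at 48 h than at 0 h in Zhoumai18 (log2 fold change -2.83 ± 0.06, edgeR). Its change over 48 h in Zhoumai18 differed from that in Baipimai by a log2 value of -1.06 and from that in Shengsimai by -1.74, in tests that share the Zhoumai18 libraries.

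The xylanase inhibitor taxi-I (TraesCS3B01G514800, chromosome 3B), which acts on xylanases of microbes, had another course. Zhoumai18 had 400, 332 and 386 FPKM at 0 h, 456, 461 and 397 FPKM at 48 h and 19.8, 26.4 and 23.0 FPKM at 96 h. Baipimai had 347, 346 and 357 FPKM at 0 h, 189, 207 and 197 FPKM at 48 h and 388, 398 and 375 FPKM at 96 h. Shengsimai had 544, 488 and 518 FPKM at 0 h, 147, 155 and 155 FPKM at 48 h and 157, 147 and 138 FPKM at 96 h. At 48 h all Zhoumai18 libraries were above all libraries of the other varieties. At 96 h all were below them, which follows from the rule. Between 48 h and 0 h in Zhoumai18 the log2 fold change of taxi-I was -0.03 ± 0.09 (adjusted p = 0.778, edgeR). At 48 h it was higher in Zhoumai18 than in Baipimai (1.19 ± 0.09) and than in Shengsimai (1.41 ± 0.09).

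**Figure D2:**
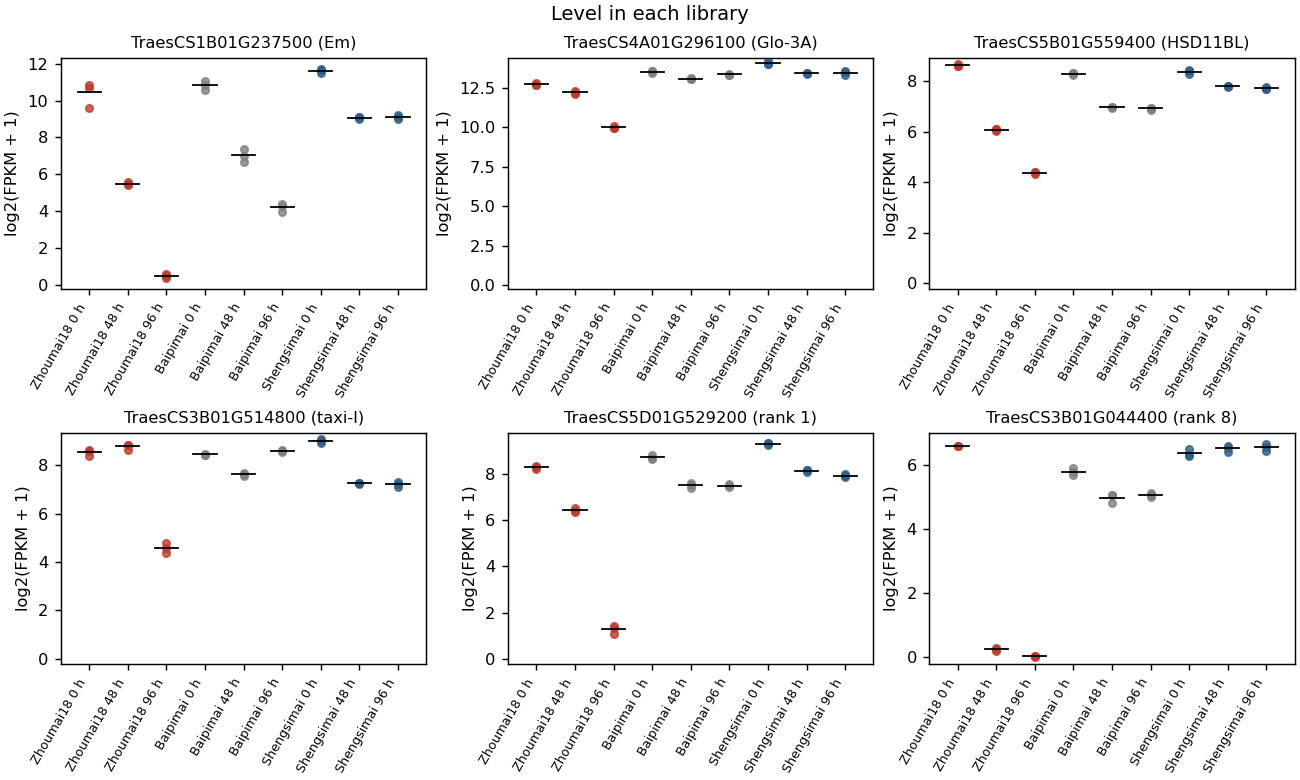
Level in each library (points, log2(FPKM + 1), with a line at the level of the group mean) of 6 members in Zhoumai18, Baipimai and Shengsimai at 0, 48 and 96 h: Em, one Glo-3A gene, HSD11BL, taxi-I, and TraesCS5D01G529200 and TraesCS3B01G044400, which rank 1 and 8 by score. In Zhoumai18 at 96 h Em is between 0.277 and 0.522 FPKM and Glo-3A between 974 and 1092 FPKM, and the lower level of Glo-3A at 48 h than at 0 h in Zhoumai18 turns round under quantile normalization.

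The 12 members with the highest score had scores between 4.55 and 6.21, which means that Zhoumai18 at 96 h lay that many log2 units below the lowest of the other groups. The first, TraesCS5D01G529200, had 298, 317 and 327 FPKM in Zhoumai18 at 0 h, 90.4, 83.9 and 79.9 FPKM at 48 h and 1.5, 1.1 and 1.66 FPKM at 96 h, against 177, 186 and 173 FPKM in Baipimai and 255, 236 and 234 FPKM in Shengsimai at 96 h. The second, TraesCS6A01G033300, was near its end point by 48 h, with 274, 291 and 279 FPKM in Zhoumai18 at 0 h, 1.51, 1.00 and 1.56 FPKM at 48 h and 0.189, 0.243 and 0.329 FPKM at 96 h. It was lower at 48 h than at 0 h in Zhoumai18 (log2 fold change -7.95 ± 0.11, edgeR). At 48 h it was lower in Zhoumai18 than in Baipimai by -6.05 ± 0.10 and lower than in Shengsimai by -6.15 ± 0.10.

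Others of these 12 were still abundant at 48 h. TraesCS5D01G440000 (LOC109732836) had 3478, 3214 and 3581 FPKM at 0 h in Zhoumai18, 1927, 1831 and 1827 FPKM at 48 h and 71.0, 84.4 and 77.3 FPKM at 96 h. TraesCS5A01G389400 had 94.0, 99.9 and 102 FPKM at 0 h, 104, 101 and 81.6 FPKM at 48 h and 0.110, 0.389 and 0.292 FPKM at 96 h in Zhoumai18. At 48 h TraesCS5A01G389400 overlapped its own 0 h range, and at 96 h it was at 301, 305 and 297 FPKM in Baipimai and 79.5, 81.7 and 70.0 FPKM in Shengsimai. TraesCS3B01G044400 had 95.9, 95.7 and 96.9 FPKM in Zhoumai18 at 0 h, 0.200, 0.145 and 0.229 FPKM at 48 h, and at 96 h 0.0264 and 0.0303 FPKM in 2 libraries and no count in the other. It therefore was near 0 from 48 h on, while Shengsimai kept 101, 95.1 and 85.7 FPKM at 96 h. At the other end of the list the last 3 members, TraesCS1B01G182200, TraesCS1A01G062000 and TraesCS4B01G205600, had scores of 2.425, 2.420 and 2.417, and the first 3 genes left out, TraesCS5A01G324500, TraesCS2D01G548700 and TraesCS2B01G354300, had 2.415, 2.410 and 2.409.

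Most members were already lower in the Zhoumai18 libraries of 48 h than in those of 0 h, which stood apart as described above and belong to the floor. In edgeR's quasi-likelihood test at an adjusted p under 0.05, 195 of the 200 were lower at 48 h than at 0 h, when 33.4% of all genes tested were lower. Only 1 was higher, when 39.4% of all genes were higher, and 4 did not pass the test. The median log2 fold change of the members was -2.44, also with the 16 members that had no count at 48 h set to their bound, against 0.092 over all genes tested. All 37 members under 1 FPKM at 48 h were lower, a direction fixed by that split and by the floor at 0 h. Of the other 163, 158 were lower. In FPKM, the mean of 166 members was more than 2-fold lower at 48 h than at 0 h. In log2(FPKM + 1) the step to 48 h was above -1 in 36 members, between -2 and -1 in 60, between -4 and -2 in 74 and -4 or less in 30. The step between 48 and 96 h was the larger of the 2 in 119 members, each of which was among the 163. As a description, Zhoumai18 at 96 h minus 48 h had a median of -2.57 over the 200, with 176 members below 0 and 11 above it.

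**Figure D3:**
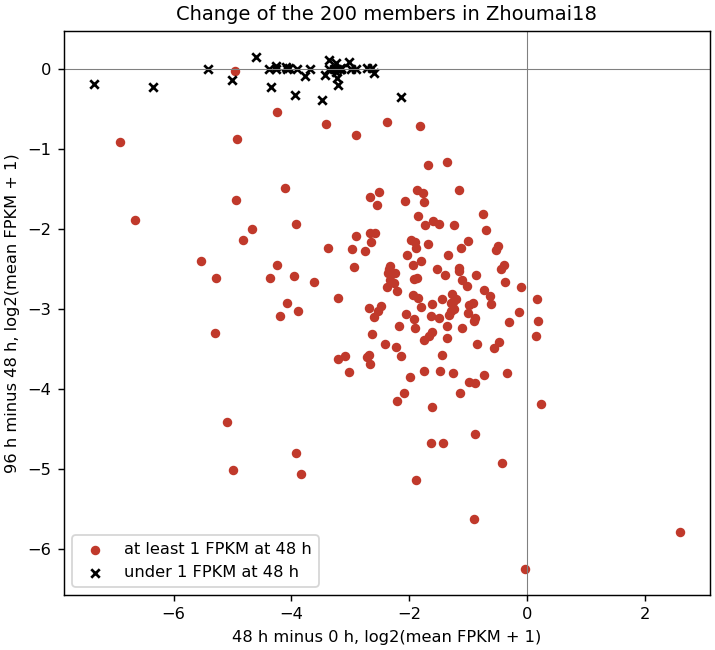
Each point is a member: its change in Zhoumai18 at 48 h minus 0 h (horizontal axis) and at 96 h minus 48 h (vertical axis), both in log2(FPKM + 1), with the members under 1 FPKM at 48 h marked apart. The larger step came after 48 h in 119 members, and the marked members lie near 0 on the vertical axis.

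The member that rose was TraesCS5D01G504200 (LOC109751753). Zhoumai18 had 169, 151 and 139 FPKM at 48 h, against 22.3, 24.5 and 26.4 FPKM at 0 h, and 1.68, 2.24 and 1.41 FPKM at 96 h, so its high level at 48 h did not last. The log2 fold change for 48 h against 0 h was 2.38 ± 0.10 (adjusted p = 4.97e-18, edgeR). In Baipimai the same gene was at 293, 311 and 293 FPKM at 96 h, against 52.5, 47.9 and 45.8 FPKM at 0 h, and Shengsimai at 96 h had 20.2, 19.2 and 18.5 FPKM. The 4 members that did not pass were taxi-I, TraesCS7A01G506500, TraesCS5B01G434100 and TraesCS3B01G343000. Among them TraesCS5B01G434100 was very abundant, with 2286, 2246 and 2180 FPKM in Zhoumai18 at 48 h, against 1922, 1908 and 2130 FPKM at 0 h, and 286, 325 and 304 FPKM at 96 h. These 4 genes overlapped or lay close to their 0 h level at 48 h. They were lower in all 3 libraries of 96 h, a direction that the rule fixed relative to 0 h.

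Against the other varieties at 48 h, where no Zhoumai18 library of 0 h is used, most members were again lower in Zhoumai18, with the condition that Baipimai and Shengsimai at 48 h are in the floor and each member was chosen to be high in both. Relative to Baipimai, 164 members were lower, when 28.6% of all genes were lower, 15 were higher, when 25.0% of all genes were higher, and 21 did not pass the test. The members had a median log2 fold change of -0.91, against -0.04 over all genes. Relative to Shengsimai, 191 were lower, when 29.1% of all genes were lower, 2 were higher, when 33.3% of all genes were higher, and 7 did not pass, with a median of -1.89, against 0.02 over all genes. Both comparisons use the same Zhoumai18 libraries. With the Zhoumai18 libraries of 0 h left out of the fit, 164 members were lower than in Baipimai and 192 lower than in Shengsimai. Of the 163 members at 1 FPKM or more, 127 were lower than in Baipimai and 154 lower than in Shengsimai. With a minimum change of 2-fold, 93 members remained lower than in Baipimai and 4 higher.

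A few members were higher in Zhoumai18 at 48 h than in the other varieties. The 2 that were higher than in Shengsimai were TraesCS5D01G504200 (log2 fold change 1.65 ± 0.09, adjusted p = 8.59e-15, edgeR) and taxi-I. Both were also higher than in Baipimai, as was TraesCS7D01G417600 (LOC109765805), with 269, 259 and 225 FPKM in Zhoumai18, against 106, 117 and 92.5 FPKM in Baipimai. The log2 fold change of that gene was 1.29 ± 0.08 (adjusted p = 1.28e-13, edgeR), and it had 4.55, 3.51 and 4.27 FPKM in Zhoumai18 at 96 h.

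The change over the first 48 h was then compared between varieties. In edgeR's test of the difference in change, 138 members had a lower change in Zhoumai18 than in Baipimai, when 22.1% of all genes did, and 22 a higher change, when 21.1% of all genes did. Against Shengsimai, 171 had a lower change in Zhoumai18, when 24.1% of all genes did, and 9 a higher one, when 25.6% of all genes did. Of the 163 members at 1 FPKM or more at 48 h, 101 had a lower change than in Baipimai and 134 than in Shengsimai. The other 37 all had a lower change in both tests, a direction that their choice by a low 48 h level favoured. Both tests share the Zhoumai18 libraries, both use its 0 h libraries, and every group in them but Zhoumai18 at 48 h is in the floor.

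**Figure D4:**
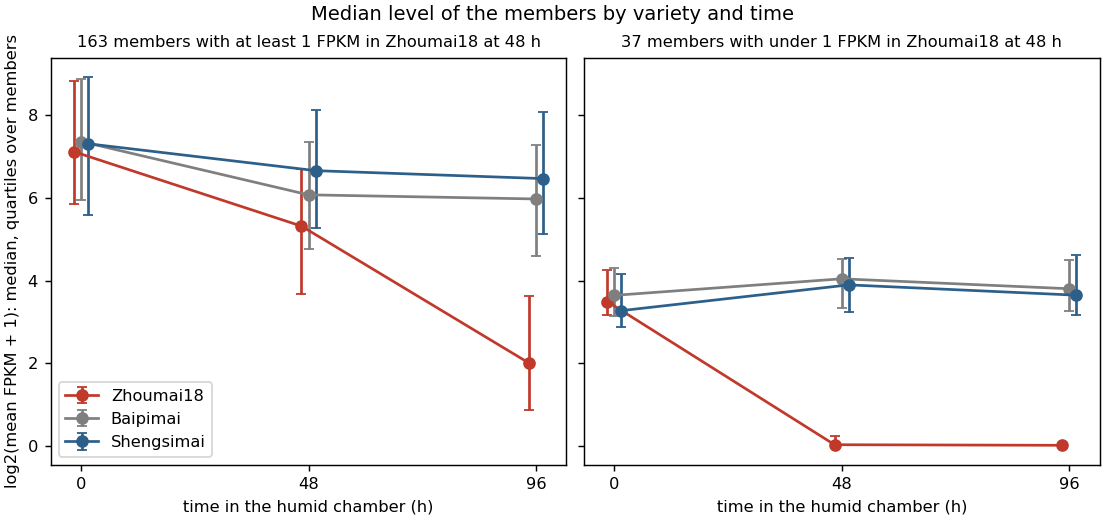
Median level of the members (points joined by lines, log2(mean FPKM + 1)) with error bars from the lower to the upper quartile over members in Zhoumai18, Baipimai and Shengsimai at 0, 48 and 96 h, for the 163 members with at least 1 FPKM in Zhoumai18 at 48 h and for the 37 members under it. In Zhoumai18 the median of the 163 is 7.12, 5.32 and 2.01 at the 3 times, and the median of the 37 is 3.50, 0.04 and 0.02.

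The 37 members under 1 FPKM in Zhoumai18 at 48 h had a different profile from the other 163. Their median level was 3.50 in Zhoumai18 at 0 h, 0.04 at 48 h and 0.02 at 96 h. The corresponding medians in Baipimai were 3.65, 4.05 and 3.81, and in Shengsimai 3.28, 3.90 and 3.65. Of the 37, 29 stayed within 1 log2 unit of their 0 h level at both later times in Baipimai, and 29 did so in Shengsimai, against 52 and 87 of the other 163. In the 163 the medians were 7.12, 5.32 and 2.01 in Zhoumai18, 7.36, 6.08 and 5.97 in Baipimai and 7.31, 6.66 and 6.47 in Shengsimai. The floor limits what this comparison can show. In all groups of both varieties every member had to lie at least 2.417 above its own level in Zhoumai18 at 96 h. This bound was lower for the 37, whose median level there was 0.02, than for the 163, with 2.01. By their medians the 37 still started nearer to their bound than the 163, and they had little room to fall. Only 12 of the 37 carried a symbol, against 87 of the 163. The split at 1 FPKM was made after the values were seen and gets no test of its own.

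In 13 of the 37 no library of Zhoumai18 at 48 or 96 h held a single count. TraesCS2B01G570700 had 21.1, 18.7 and 19.5 FPKM in Zhoumai18 at 0 h, from 4495 counts, and 0 counts in the 6 later libraries. In Baipimai it had 21.1, 20.2 and 18.6 FPKM at 48 h and 25.4, 27 and 24.5 FPKM at 96 h, and in Shengsimai 22.0, 19.8 and 18.1 FPKM at 48 h and 23.6, 24.9 and 23.7 FPKM at 96 h. Set against a floor of 3 counts over the 3 libraries, it was at least 1810-fold lower in Zhoumai18 at 48 h than at 0 h. At 48 h it was at least 1480-fold lower there than in Baipimai and at least 1650-fold lower than in Shengsimai. It was named for the largest fall in these comparisons, and the rule chose it to be high in the other groups, so the bounds carry no p-value. These bounds cover counting error only, since reads copied by PCR without molecular identifiers are not independent molecules. TraesCS5B01G213100 likewise had 16.3, 16 and 15.1 FPKM in Zhoumai18 at 0 h, no count later, and at least 1210-fold lower counts at 48 h than Baipimai and at least 1450-fold lower counts than Shengsimai. TraesCS7B01G357600 had 9.6, 9.31 and 9.0 FPKM in Zhoumai18 at 0 h and no count at 48 h, at least 1200-fold lower. All 13 are among the 15 members in the 492 genes described above, and the other 2, TraesCS7B01G331200 and TraesCS1D01G449900, had 2 counts each over the 3 libraries at 96 h and none at 48 h.

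At 0 h the members differed between varieties in both directions, in groups that are all in the floor. Relative to Baipimai, 45 members were higher in Zhoumai18, when 23.5% of all genes were higher, 88 were lower, when 25.7% of all genes were lower, and 67 did not pass edgeR's test, with a median log2 fold change of -0.09. This split depended on scaling: with library totals alone it was 66 higher and 64 lower. Relative to Shengsimai 40 were higher, when 29.4% of all genes were higher, 112 were lower, when 29.4% were lower, and 48 did not pass, with a median of -0.28. With library totals alone that split was 84 higher and 63 lower, and under this scaling the median of all genes was 0.379. Of the 37 members under 1 FPKM at 48 h, 7 were higher and 13 lower in Zhoumai18 than in Baipimai at 0 h, and 8 were higher and 13 lower than in Shengsimai. The direction of the members as a set at 0 h is not fixed by these data.

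Single members differed widely at 0 h. TraesCS7B01G471400 had 804, 783 and 859 FPKM in Zhoumai18, 447, 444 and 454 FPKM in Baipimai and 16.9, 16.5 and 17.8 FPKM in Shengsimai. In Zhoumai18 it was higher than in Shengsimai (log2 fold change 5.20 ± 0.12). At 96 h it had 2.87, 2.26 and 1.95 FPKM in Zhoumai18, 905, 868 and 940 FPKM in Baipimai and 86.8, 83.2 and 85.3 FPKM in Shengsimai. TraesCS7B01G017200 had 505, 456 and 593 FPKM in Zhoumai18 at 0 h, against 88.5, 71.2 and 102 FPKM in Baipimai (log2 fold change 2.44 ± 0.25). TraesCS2A01G556400 had 12.8, 10.01 and 11.3 FPKM in Zhoumai18, against 322, 273 and 300 FPKM in Baipimai and 197, 169 and 172 FPKM in Shengsimai (log2 fold changes -4.84 ± 0.11 and -4.35 ± 0.11). TraesCS5A01G019100, one of the 37, had 8.96, 10.3 and 10.4 FPKM in Zhoumai18 at 0 h, against 233, 169 and 191 FPKM in Shengsimai. These genes did not overlap between the varieties named, and the first of them was abundant in both white-grained varieties.

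In the resistant varieties most members were also lower at 96 h than at 0 h, in groups that are all in the floor, so that a member that had fallen as far as in Zhoumai18 could not have been chosen. In Baipimai 156 members were lower at 96 h than at 0 h, when 31.4% of all genes were lower, 24 were higher, when 39.4% of all genes were higher, and 20 did not pass, with a median log2 fold change of -1.30, against 0.11 over all genes. In Shengsimai 153 were lower, when 33.2% of all genes were lower, 24 were higher, when 39.5% of all genes were higher, and 23 did not pass, with a median of -0.92, against 0.08. With library totals alone the split in Shengsimai was 121 lower and 51 higher, a scaling under which the median of all genes was 0.594, against 0.0791 with TMM. Of the 163 members at 1 FPKM or more in Zhoumai18 at 48 h, 139 were lower in Baipimai at 96 h and 132 in Shengsimai, and of the other 37, 17 and 21. Lower in both varieties were 130 members, higher in both were 7, higher in Baipimai and lower in Shengsimai were 12, and lower in Baipimai and higher in Shengsimai were 14. The shares of all genes with these pairs of calls were not computed, so nothing is read from these joint counts.

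The largest falls over 96 h in Baipimai were in Em and in TraesCS1D01G225900, with log2 fold changes of -6.94 ± 0.25 and -7.08 ± 0.27. In Shengsimai they were in TraesCS5D01G445900 (LOC109772542), which had 5.57, 5.83 and 5.12 FPKM at 96 h, against 104, 89.6 and 95.5 FPKM at 0 h, and in TraesCS1D01G424500 (LOC109740203), which had 16.1, 14.1 and 15.6 FPKM, against 196, 219 and 213 FPKM. Their log2 fold changes were -4.67 ± 0.11 and -4.31 ± 0.14. Members that rose in Shengsimai by 96 h included TraesCS7D01G185500 (LOC109764392), with 265, 259 and 252 FPKM at 96 h, against 37.0, 37.4 and 35.9 FPKM at 0 h, and TraesCS1D01G448600, with 34.2, 35.9 and 34.5 FPKM, against 5.90, 5.42 and 5.65 FPKM. In Baipimai TraesCS5A01G389400 rose to 301, 305 and 297 FPKM, against 115, 110 and 104 FPKM at 0 h (log2 fold change 1.21 ± 0.09).

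Between the resistant varieties at 96 h, 48 members were higher in Baipimai than in Shengsimai, when 31.8% of all genes were higher, 120 were lower, when 31.0% of all genes were lower, and 32 did not pass, with a median log2 fold change of -0.50, against 0. Em was lower in Baipimai by a log2 fold change of -4.92 ± 0.23, and TraesCS1D01G225900 by -5.09 ± 0.25. Higher in Baipimai were TraesCS5D01G504200 (4.0 ± 0.11) and TraesCS7B01G471400 (3.45 ± 0.11). The change from 0 to 96 h was lower in Baipimai than in Shengsimai for 97 members, when 24.7% of all genes were lower, and higher for 58, when 23.5% of all genes were higher.

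Some members shared a symbol. There were 16 symbols shared by 2 or more members, which covered 37 members, and 5 of the symbols had 3 members. In 4 of these the 3 members lay one on each subgenome. Under LOC109774090, the copies on 1A, 1B and 1D averaged 50.9, 53.8 and 41.0 FPKM in Zhoumai18 at 0 h, 10.5, 8.85 and 7.05 FPKM at 48 h and 0.241, 0.262 and 0.212 FPKM at 96 h, against 16.8, 11.4 and 9.06 FPKM in Baipimai and 36.9, 32.3 and 21.0 FPKM in Shengsimai at 96 h. Under LOC109778950, the copies on 5A, 5B and 5D averaged 456, 471 and 349 FPKM in Zhoumai18 at 0 h, 72.9, 98.6 and 151 FPKM at 48 h and 6.4, 15.95 and 19.6 FPKM at 96 h. The copies under LOC109774090 stayed close to each other at each time, while under LOC109778950 the copy on 5D was the lowest at 0 h and the highest at 48 and 96 h. Under LOC109763002 the copy on 5B averaged 208 FPKM in Zhoumai18 at 0 h and 0.835 FPKM at 96 h, while the copies on 5A and 5D kept 3.92 and 7.04 FPKM at 96 h. Under LOC109772542 the copies on 5A, 5B and 5D averaged 111, 251 and 149 FPKM at 0 h, and 0.101, 1.00 and 0.202 FPKM at 96 h.

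The members were not spread evenly over the chromosomes. Chromosome 5B held 24 of the 200 (12%, against 5.46% of the genes tested), 1D held 19 (9.5%, against 4.4%), 5D held 16 and 7B held 15. The group 5 chromosomes held 52 (26%, against 16.3%), the group 1 chromosomes held 41 (20.5%, against 13%), and the group 6 chromosomes held 5 (2.5%, against 11.8%). By subgenome there were 60 members on A, 74 on B and 66 on D. Of the 37 members under 1 FPKM at 48 h, 10 lay on 1D, 7 on 7B and 6 on 5B, and by subgenome 20 lay on B, 12 on D and 5 on A.

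**Figure D5:**
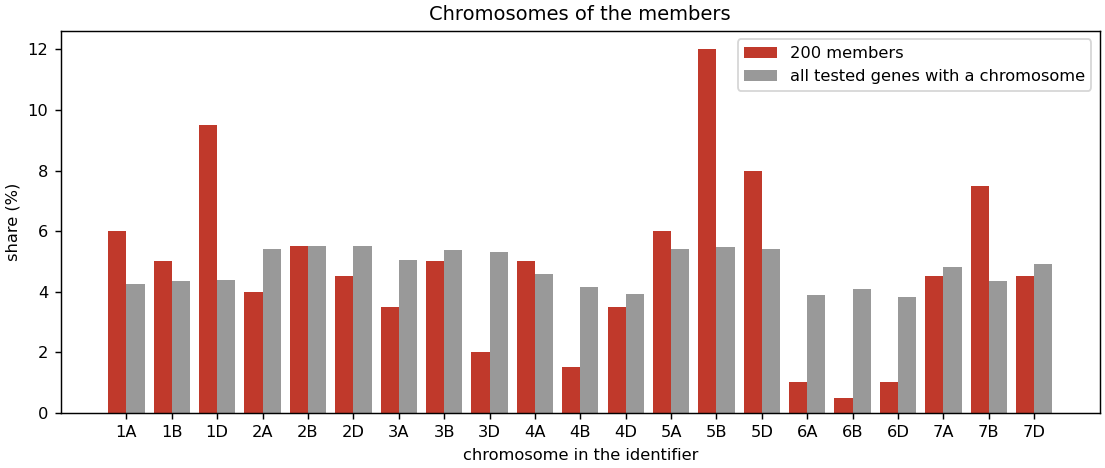
Share of the 200 members (red bars, %) and of all tested genes with a chromosome (grey bars, %) on each wheat chromosome, read from the identifier. The members' bar is above the grey bar on 5B (12% against 5.46%) and on 1D (9.5% against 4.4%), and below it on the group 6 chromosomes.

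Some members were close neighbours. Taking members whose identifiers follow within 20 steps of the annotation's numbering, 53 members lay in 20 runs. The longest run held 9 members on chromosome 1D, between TraesCS1D01G446400 and TraesCS1D01G452900, and 8 of these 9 were under 1 FPKM in Zhoumai18 at 48 h. TraesCS1D01G446400 (LOC109766446) had 8.94, 8.27 and 8.76 FPKM in Zhoumai18 at 0 h, 0.145, 0.174 and 0.233 FPKM at 48 h and 0.275, 0.135 and 0.373 FPKM at 96 h, against 8.72, 8.58 and 8.43 FPKM in Baipimai and 9.75, 9.70 and 11.7 FPKM in Shengsimai at 96 h. Its level was nearly even in both other varieties and under 1 FPKM in Zhoumai18 from 48 h on. The range held 66 genes of the table, 35 of them tested, and 6 of the 66 were present in Zhoumai18 at 0 h only, none was absent at 0 h only, and 12 were present at all 3 times. Not every gene of the range therefore followed the members. A run of 4 on 5B, between TraesCS5B01G212900 and TraesCS5B01G214700, had 3 members under 1 FPKM at 48 h, and a run of 3 on 7B, between TraesCS7B01G331200 and TraesCS7B01G331700, had all 3 under it. In contrast, the 3 members of a run on 5D, between TraesCS5D01G399400 and TraesCS5D01G399600, were all at 1 FPKM or more at 48 h.

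The table names 12 other genes of seed maturation and abscisic acid signalling, both positive and negative regulators and protective proteins, listed only where they were not members. Of the 12, 4 were higher and 6 lower in Zhoumai18 at 48 h than at 0 h, and 5 were higher and 5 lower than in Baipimai at 48 h. Relative to Shengsimai at 48 h, 6 were higher and 4 lower. The shares of all genes in these comparisons are given above, and with so few genes nothing is read from the counts about the group. Vp-1A, the A genome copy of VIVIPAROUS1, averaged 23.4, 8.71 and 4.47 FPKM in Zhoumai18 at 0, 48 and 96 h, 27.7, 20.7 and 14.4 FPKM in Baipimai and 25.6, 24.7 and 23.2 FPKM in Shengsimai. It fell by 48 h in Zhoumai18 (log2 fold change -1.69, adjusted p = 1.80e-18, edgeR) and was lower there at 48 h than in Baipimai (-1.21) and Shengsimai (-1.62). EmBP-1a, a bZIP factor that binds the Em promoter, averaged 31.0, 3.73 and 0.475 FPKM in Zhoumai18, 23.2, 2.49 and 4.12 FPKM in Baipimai and 63.9, 12.6 and 12.1 FPKM in Shengsimai. It was lower in Zhoumai18 at 48 h than in Shengsimai (-1.86) and higher than in Baipimai (0.63). PER1, a peroxiredoxin of the embryo and aleurone, averaged 131, 226 and 102 FPKM in Zhoumai18 at the 3 times, 180, 360 and 152 FPKM in Baipimai and 90.4, 398 and 493 FPKM in Shengsimai. It rose by 48 h in Zhoumai18 (0.52), was lower in Baipimai at 96 h than at 0 h (-0.49) and rose in Shengsimai by 96 h (1.91). Others of the 12 were higher in Zhoumai18 at 96 h than at 0 h. Wcor410c averaged 1.48, 0.524 and 49.7 FPKM there at 0, 48 and 96 h, and WCOR410 5.60, 3.01 and 47.45 FPKM. TaABI1 averaged 13.5, 18.3 and 22.3 FPKM, and the SnRK2.4 gene on 3A 7.59, 10.8 and 16.05 FPKM. By mean FPKM, SMP and HVA22L were higher too. Lower were AIP2-1, the SnRK2.4 gene on 3B and a gene on 7B with the symbol PHS1 (TraesCS7B01G132000). Copies of PHS1 on other chromosomes were not looked up.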

How the data were processed

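RNA of 27 whole-spike samples was poly(A)-selected and made into libraries with a NEBNext Ultra kit. The authors deposited fragment counts per gene and FPKM values per gene, normalized to transcript length and library size; the aligner, the counter and the genome build are not given in the sources used here, nor is the use of strand in counting. Groups and replicate numbers were taken from the GEO titles, and all 27 columns of each kind were matched, with 0 per-sample columns left over. The file holds 1 line that names no gene, which was left out.

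The members were chosen from FPKM by the rule stated in the report. The members and the gene lists were chosen with earlier results of these data known. Counts of all 68658 genes with at least 1 FPKM in at least 3 libraries were fitted in one model of the 9 group means with TMM scaling and the quasi-likelihood test of edgeR 4.0.16 in R 4.3.3, and p-values were adjusted over all genes by Benjamini-Hochberg at 0.05. Genes with no count in a group are given against a floor of 3 counts over that group. On simulated counts 99 of 101 genes changed 2-fold and 99 of 99 genes changed 4-fold were recovered, with 9 false calls among 68658 genes. The simulation used the same spread for all genes, and only a few well-expressed genes changed. It lacked the many changed genes and the scaling differences of the real data, so its rate of false calls does not carry over to them. Replicate libraries differed beyond sampling noise (chi-square per degree of freedom 2.89 to 12.6). Alternatives used library totals, DESeq2 1.42.0, limma 3.58.1 on log2(FPKM + 1), log2(FPKM + 0.1) and quantile-normalized values, no filter, the compared groups alone, a replicate block, a 2-fold minimum and each library left out.

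Named genes were the 12 with the highest score, up to 2 higher and 2 lower per comparison with the largest change and no overlap of libraries, the genes around the threshold, members of the longest runs, and copies sharing a symbol; TraesCS7A01G506500, TraesCS5B01G434100 and TraesCS3B01G343000 were named after their values were seen. Symbols are those of the deposited table, and the RefSeq gene table of assembly IWGSC CS RefSeq v2.1 lists those of 3 members. That table pairs no products with identifiers, so lists of tissue markers by product were not used here, and no coordinates are given.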

Additional observations from a re-analysis of the deposited data

Results flagged for a closer look

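The change of a member over time differed between varieties in many cases, by edgeR's quasi-likelihood test of the difference in change with Benjamini-Hochberg adjustment over all genes. Between 0 and 48 h the change in Zhoumai18 was higher than that in Baipimai for 22 members and lower for 138, and relative to Shengsimai it was higher for 9 and lower for 171. Between 0 and 96 h the change in Baipimai was higher than that in Shengsimai for 58 members and lower for 97. The first 2 tests share the Zhoumai18 libraries, including those of 0 h that stood apart, and every group but Zhoumai18 at 48 h was used to choose the members, so these counts are a description.

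Among the members with a known name, Em (TraesCS1B01G237500) had a change over 48 h in Zhoumai18 that differed from Baipimai by -1.055 and from Shengsimai by -2.207 on the log2 scale, and its change over 96 h in Baipimai differed from Shengsimai by -3.887. HSD11BL (TraesCS5B01G559400) gave -1.058, -1.739 and -0.433 in the same 3 tests. The xylanase inhibitor taxi-I (TraesCS3B01G514800) gave values of the other sign, 1.222 for Zhoumai18 against Baipimai, 2.252 for Zhoumai18 against Shengsimai and 2.245 for Baipimai against Shengsimai. For Glo-3A the difference of Zhoumai18 from Shengsimai over 48 h was 0.345 (TraesCS4A01G296000) and 0.393 (TraesCS4A01G296100), and that of Baipimai from Shengsimai over 96 h was 0.674 and 0.699, values of changes whose own direction turned under quantile normalization.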

How the results depend on the processing

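Counts of members in each direction were recomputed under the alternatives of the processing section, and 264 stayed within 1.5 times the value reported while 34 did not. Of the values of single genes, 1188 kept direction and side of the threshold, 54 kept direction but no longer passed, and 8 reversed. All 8 were Glo-3A under quantile normalization, which by construction gives the highest genes of each library equal values: for TraesCS4A01G296000 0.645 in Zhoumai18 at 48 h against 0 h, 0.278 in Zhoumai18 against Shengsimai at 48 h, 0.557 in Baipimai and 0.605 in Shengsimai at 96 h against 0 h, and for TraesCS4A01G296100 0.751, 0.21, 0.629 and 0.272 in the same 4 comparisons.

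Zhoumai18 at 48 h against 0 h had 3 members higher with library totals or limma on either pseudocount and 7 with quantile normalization. Against Shengsimai at 48 h there were 4 higher with library totals and with limma on either pseudocount. A 2-fold minimum left 4 higher and 93 lower for Zhoumai18 against Baipimai at 48 h, 5 and 15 for Zhoumai18 against Baipimai at 0 h, 12 and 32 for Zhoumai18 against Shengsimai at 0 h, 6 higher for Baipimai at 96 h against 0 h, 5 higher and 96 lower for Shengsimai at 96 h against 0 h, and 10 and 50 for Baipimai against Shengsimai at 96 h. At 0 h, Zhoumai18 against Shengsimai gave 84 higher and 63 lower with library totals, 84 and 65 with limma on log2(FPKM + 1), 79 and 63 on log2(FPKM + 0.1), and 79 and 67 with quantile normalization; against Baipimai the 4 splits were 66 and 64, 63 and 67, 58 and 61, and 62 and 66. Shengsimai at 96 h against 0 h gave 51 higher and 121 lower, 54 and 123, 50 and 120, and 59 and 107. Baipimai at 96 h against 0 h had 39 higher with quantile normalization, and 15 among the members with at least 1 FPKM in Zhoumai18 at 48 h. Library totals moved the median of all genes to 0.329, 0.351 and 0.594 for the later against the earlier time in Zhoumai18 (48 h), Baipimai (96 h) and Shengsimai (96 h), and to 0.379 for Zhoumai18 against Shengsimai at 0 h. The cause of the other changes was not tested.

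With each library left out in turn, Zhoumai18 at 48 h had 195 to 197 members lower than at 0 h, 161 to 169 lower than Baipimai and 190 to 193 lower than Shengsimai, and Zhoumai18 at 0 h had 74 to 87 lower than Baipimai and 103 to 111 lower than Shengsimai. The choice of members kept 196 to 200 of the 200 with a library left out, 194 with the median of replicates, 192 with TMM-scaled FPKM, 190 on the TPM scale, 119 with a pseudocount of 0.1, which raises genes near 0, and 126 without Zhoumai18 at 0 h in the floor, an alternative chosen after seeing the data, as were the fit without those libraries and the counts over members with at least 1 FPKM.

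The replicate number marks separate spikes and pairs nothing, and deviations of same-numbered libraries correlated between -0.18 and 0.26, with all pairs over 0.1 in 0 of the 8 comparisons. With the number as a replicate block, members lower and higher were 195 and 1 for Zhoumai18 at 48 h against 0 h, 165 and 15 against Baipimai at 48 h, 192 and 2 against Shengsimai at 48 h, 89 and 47 against Baipimai at 0 h, and 112 and 40 against Shengsimai at 0 h. Between 96 h and 0 h they were 156 and 23 in Baipimai, with 153 and 24 in Shengsimai, and 120 and 47 for Baipimai against Shengsimai at 96 h. Levels under a few counts in Zhoumai18 at 48 and 96 h are limited by depth.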

Other observations

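The table also holds 42909 new loci, which carry no annotated identifier, and 2729 identifiers without a chromosome, neither of which the rule covers. Of the new loci 18 reached the score of the last member, and 5 of these were under 1 FPKM in Zhoumai18 at 48 h. Of the identifiers without a chromosome 4 reached it.

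In the opposite direction, 1299 genes were present in Zhoumai18 at 96 h, with at least 200 counts over its 3 libraries, and had at most 5 counts at 0 h and at 48 h, against 21 in Baipimai at 96 h and 68 in Shengsimai at 96 h. Of the 1299 genes, 394 were absent from all 6 groups of the other varieties.

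Among the 74 genes that replaced members when Zhoumai18 at 0 h was left out of the floor, 49 were under 1 FPKM in Zhoumai18 at 0 h and 46 were under it at all 3 times. Of the 74 members that dropped out, 14 were among the 37 under 1 FPKM at 48 h.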
